A study of Mus musculus with 18 samples.

Results

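The nuclear hormone receptors are transcription factors that are switched by small fat-soluble ligands, and 9 of their genes are described here: *Ppard*, *Pparg*, *Rxra*, *Rara*, *Vdr*, *Nr3c1*, *Esrra*, *Nr4a1* and *Nr4a2*. They were chosen by symbol, as the genes whose name in the count file equalled 1 of these 9, and each symbol matched 1 of the 56748 genes listed. The study asked how the food antioxidant TBHQ (tert-butylhydroquinone) alters the response of macrophages to microbial stimuli. It used RAW264.7 cells, an immortalised mouse macrophage line from a leukaemia virus-induced tumour and not primary macrophages, and sequenced poly(A) RNA in 18 libraries, 3 for each of 6 conditions. Control cells were left without further treatment after they had adhered. TBHQ cells were given 5 µM TBHQ for 4 h. LPS cells were given 0.1 µg/mL lipopolysaccharide, a bacterial cell wall component, for 12 h, and PIC cells 20 µg/mL poly(I:C), a mimic of viral double-stranded RNA, for 12 h. For LPS + TBHQ and PIC + TBHQ, 4 h of 5 µM TBHQ came first and the same dose of stimulus followed for another 12 h. The study's timeline puts the control, in medium only, at 12 h as well. TBHQ alone was therefore harvested at another time than the control. Treatment with TBHQ and a stimulus lasted 4 h longer than the stimulus alone or the control. The clock hours at which the stimuli alone were added and harvested were not stated. In these comparisons treatment and time therefore cannot be told apart. TBHQ was dissolved in DMSO without a stated carrier control for these libraries, so the compound and its carrier cannot be told apart. Summed gene counts ran from 14423390 to 18851626 per library. A total of 3 counts, which is 0.159 to 0.208 CPM (counts scaled to a library of 1000000), was taken as the floor of detection, which reflects counting error only.

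Most receptors of this family bind DNA as dimers at short repeated hexamers, and the retinoid X receptors are the shared partner of the peroxisome proliferator-activated, retinoic acid, vitamin D, thyroid hormone and liver X receptors. Without an activating ligand many of them hold corepressor complexes on their target genes, and with one they exchange these for coactivators. In macrophages they are best known for control of lipid handling and for restraint of inflammatory genes, the latter above all for the glucocorticoid receptor, the target of steroid drugs.

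The label of the cells was checked against marker genes. All 9 macrophage markers were above the floor in at least 1 library, and their summed level was 4401 to 5694 FPKM (fragments scaled for gene length and library size) per library, most of it from *Lyz2* with a mean of 4021. Of 5 T cell markers, 4 were at or under the floor in every library (*Cd3e*, *Cd3d*, *Cd8a* and *Trac*), and so were 1 of 3 B cell markers (*Ms4a1*), 1 of 4 dendritic cell markers (*Flt3*) and 4 of 6 fibroblast and epithelial markers (*Col1a1*, *Epcam*, *Cdh1* and *Krt18*). The summed levels of these 4 lists did not exceed 0.0697, 0.354, 0.375 and 0.122 FPKM in any library. Osteoclast markers, which this line is known to express, summed to 262 to 336 FPKM and were led by *Ctsk*. This sum was 262 to 282 in the 9 libraries with TBHQ and 295 to 336 in the 9 without. *Ctsk* was lower with TBHQ alone (log2FC -0.26), before LPS (-0.20) and before PIC (-0.19). *Dcstamp*, of the same list, was lower with TBHQ alone (-0.16) but higher with TBHQ before LPS (0.18) and before PIC (0.39). The macrophage marker sum itself moved with the conditions, from 5550 ± 178 FPKM (SD, n = 3) in the control to 5054 ± 42.9 with TBHQ, 4647 ± 107 with LPS and 4476 ± 86.5 with PIC. With TBHQ before the stimulus it was 5403 ± 113 for LPS and 5051 ± 192 for PIC, and its part in the results below was not tested. Its genes did not move together: *Lyz2* fell with LPS (log2FC -0.30) and PIC (-0.40), as did *Csf1r* (-0.75 and -0.85), while *Adgre1* rose (1.45 and 1.86), as did *Itgam* (0.96 and 1.25). In bulk RNA, fewer cells of a type and less RNA per cell cannot be told apart.

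Per length, *Esrra* was the most abundant of the 9 in control cells, at 13.9 ± 0.5402 FPKM (mean ± SD, n = 3, as for the other levels in this paragraph). It was followed by *Nr3c1* at 7.63 ± 0.543, *Rxra* at 4.23 ± 0.157, *Rara* at 2.68 ± 0.108, *Ppard* at 2.15 ± 0.244, *Nr4a1* at 1.57 ± 0.164, *Pparg* at 1.06 ± 0.226 and *Nr4a2* at 0.946 ± 0.0885. In this order the libraries of *Pparg* and *Nr4a2* overlapped, and those of each other pair of neighbours did not. *Esrra* lay above 72.9% and *Pparg* above 22.0% of the 13691 genes tested. With LPS and with PIC, *Ppard* moved from place 5 to place 3, above *Rxra* and *Rara*, and *Pparg* ranked below *Nr4a2* and above *Vdr* only. With PIC + TBHQ the libraries of *Ppard* overlapped those of *Nr3c1*, the receptor in place 2.

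**Figure D1:**
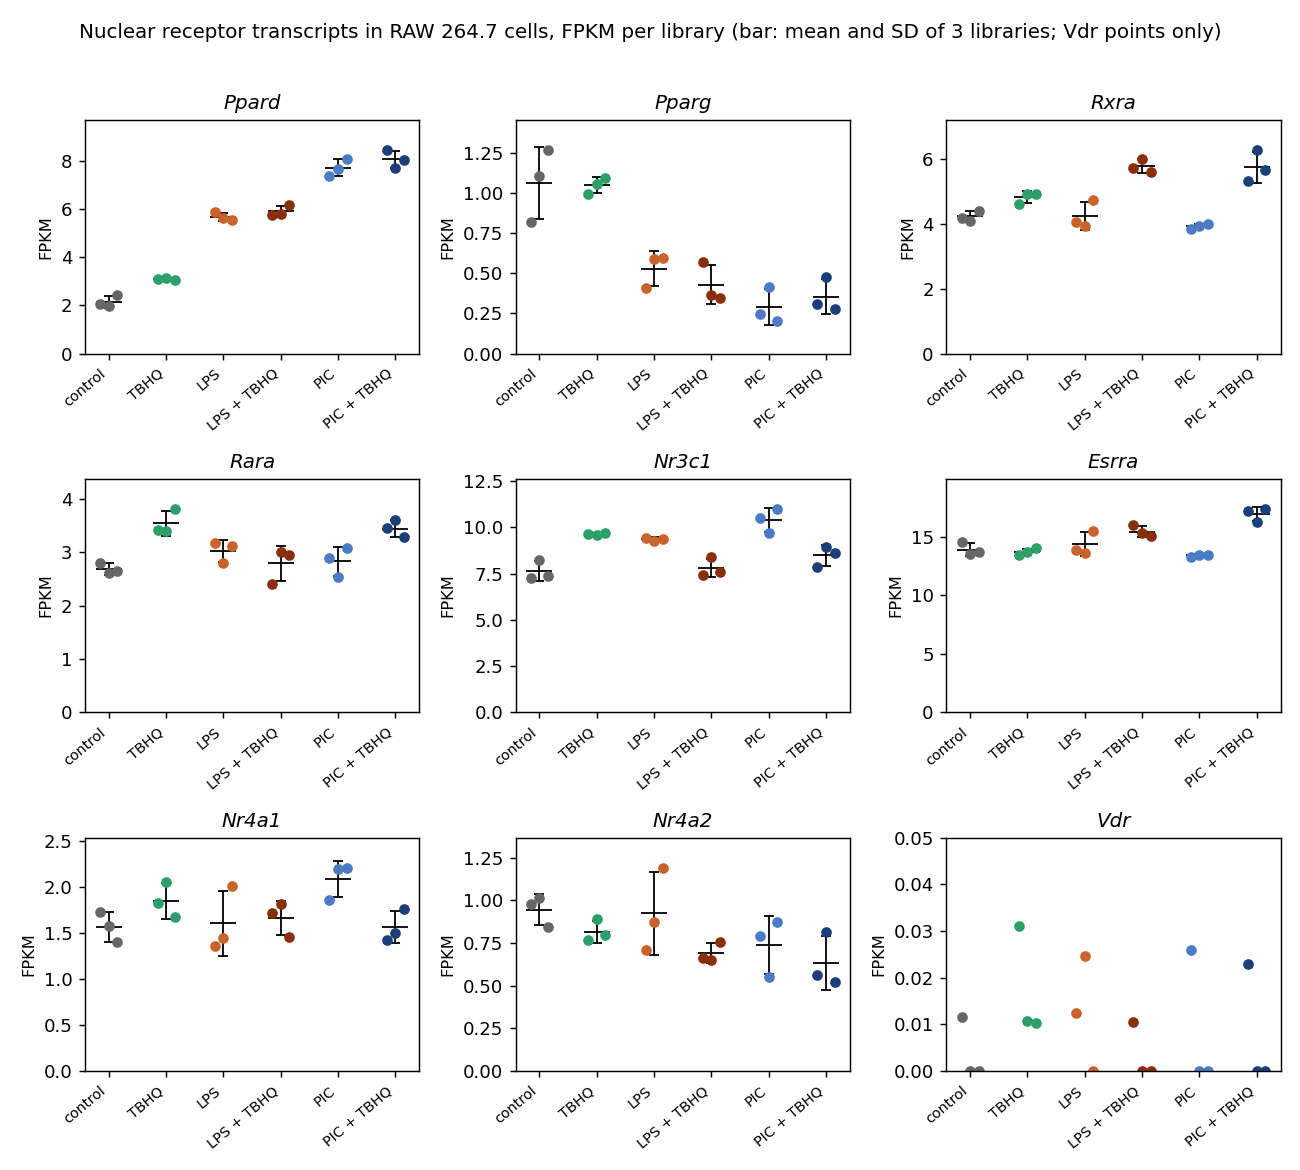
FPKM (linear axis from 0) of the 9 receptor genes in each library of the 6 conditions; points are libraries, and bars give the mean and SD of 3 libraries, left out for *Vdr*, where no library had more than 3 counts. *Ppard* libraries lay above every control library in the 5 other conditions, and *Pparg* libraries of the 4 stimulated conditions lay below every control library.

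*Ppard* encodes PPARδ, a fatty acid receptor that is present in most tissues. Its FPKM was 2.05, 1.98 and 2.43 in the control libraries and 3.11, 3.14 and 3.07 with TBHQ. With LPS it was 5.87, 5.64 and 5.55, and with TBHQ before it 5.74, 5.81 and 6.17. With PIC it was 7.38, 7.68 and 8.08, and with PIC + TBHQ 8.43, 7.72 and 8.05. The control libraries were the lowest, the TBHQ libraries stood above all of them, the LPS libraries stood above those of TBHQ, and every PIC library was higher than every LPS library. *Ppard* transcripts were 2.62 times as abundant with LPS as in the control (log2FC 1.39, SE 0.093, edgeR FDR = 2.2e-18), and 3.53 times as abundant with PIC (log2FC 1.82, SE 0.098, edgeR FDR = 1.4e-22). PIC exceeded LPS by 0.43 on the log2 scale (SE 0.043, edgeR FDR = 1e-06). TBHQ alone raised *Ppard* by 0.52 (SE 0.091, edgeR FDR = 1.3e-06). After a stimulus TBHQ gave no call, with a log2FC of 0.053 (SE 0.040) in LPS-stimulated and 0.074 (SE 0.053) in PIC-stimulated cells, whose libraries overlapped in both cases.

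*Pparg* encodes PPARγ, the receptor of the thiazolidinedione drugs and a regulator of fat storage and of the alternatively activated macrophage state. Its counts were 37, 53 and 63 in the control libraries and 50, 51 and 55 with TBHQ. With LPS they were 17, 25 and 25, and with LPS + TBHQ 28, 18 and 18. With PIC they were 10, 17 and 10, and with PIC + TBHQ 14, 20 and 13. Scaled to library size, every stimulated library lay below every control library, while the TBHQ libraries fell within the control range. *Pparg* fell 2.01 times with LPS (log2FC -1.01, SE 0.24, edgeR FDR = 0.0023) and 3.78 times with PIC (log2FC -1.92, SE 0.32, edgeR FDR = 1.3e-06). The stimulated cells that had first received TBHQ were also below control (LPS + TBHQ -1.32, SE 0.27, PIC + TBHQ -1.60, SE 0.28, edgeR FDR = 0.00014 and 1.5e-05). PIC was lower than LPS at an edgeR FDR of 0.045 (log2FC -0.91, SE 0.32), but 1 PIC library overlapped the LPS range and this call was lost with DESeq2, without the low-count filter, with limma on log2(FPKM + 1), in a fit of these conditions only and when any of 8 libraries was left out. TBHQ was not called in unstimulated (log2FC -0.024), LPS-stimulated (-0.31) or PIC-stimulated cells (0.31), where 10 to 63 counts per library leave SEs of 0.18 to 0.35. *Ppara*, the remaining PPAR gene, had 0 to 2 counts in every library and was at or under the floor.

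The list of PPAR target genes and the lists below were written from general knowledge with earlier results of these data known. Of the 12 known PPAR target genes listed, 10 were tested, and they did not move in 1 direction. With LPS 3 rose and 5 fell, and with PIC 3 rose and 5 fell, with medians of -0.036 and -0.093 on the log2 scale, beside -0.0040 and -0.015 over all genes tested. These are 8 and 8 of 10 called, against 48.1% and 58.7% of all genes called. For TBHQ before LPS and before PIC the medians over all genes tested were 0.0023 and 0.0089, and the list medians below stand beside these 4 values. Values given for single genes from here on are log2FC with SE. *Cd36*, the scavenger receptor that takes up oxidised lipoprotein, rose with LPS (1.71, SE 0.11) and PIC (1.78, SE 0.087), and so did *Fabp4*, a fatty acid carrier (1.12, SE 0.060 and 1.78, SE 0.099). *Cpt1a*, which brings fatty acids into mitochondria, fell with both stimuli (-0.96, SE 0.066 and -1.09, SE 0.068). *Angptl4*, a secreted inhibitor of lipoprotein lipase, stood at 1.64, 1.35 and 1.54 FPKM in the control, 0.517, 0.688 and 0.632 with LPS and 0.372, 0.345 and 0.233 with PIC. After TBHQ it stood at 0.946, 1.02 and 0.885 in LPS + TBHQ cells and 0.901, 0.855 and 0.775 in PIC + TBHQ cells. *Angptl4* libraries with a stimulus alone were the lowest, those with TBHQ before the stimulus were intermediate, and no library of 1 of these groups overlapped another's within a stimulus. *Angptl4* fell with both stimuli (-1.30, SE 0.14 with LPS and -2.28, SE 0.20 with PIC) and was higher with TBHQ before LPS (log2FC 0.63, SE 0.13, edgeR FDR = 0.022) and before PIC (log2FC 1.44, SE 0.20, edgeR FDR = 1.1e-05). The comparisons with control share the control libraries, and each stimulus alone stands in both its comparison with control and its comparison with TBHQ, so these values are not independent of each other. After TBHQ, 2 of the 10 were higher and 5 lower in LPS-stimulated cells, and 2 higher and 4 lower in PIC-stimulated cells, with medians of -0.10 and 0.0046, where 23.9% and 31.3% of all genes were called. *Acaa2*, an enzyme of mitochondrial fatty acid oxidation, was higher with TBHQ in both (0.29, SE 0.074 and 0.24, SE 0.057), *Plin2*, which coats lipid droplets, was lower in both (-0.25, SE 0.051 and -0.20, SE 0.021), and so was *Cd36* (-0.17, SE 0.074 and -0.30, SE 0.0088). TBHQ alone raised *Cd36* (0.43, SE 0.087) and lowered *Plin2* (-0.31, SE 0.044) and *Acaa2* (-0.20, SE 0.075). With DESeq2 the calls of *Angptl4* for TBHQ before LPS and of *Acaa2* for TBHQ before PIC were lost.

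**Figure D2:**
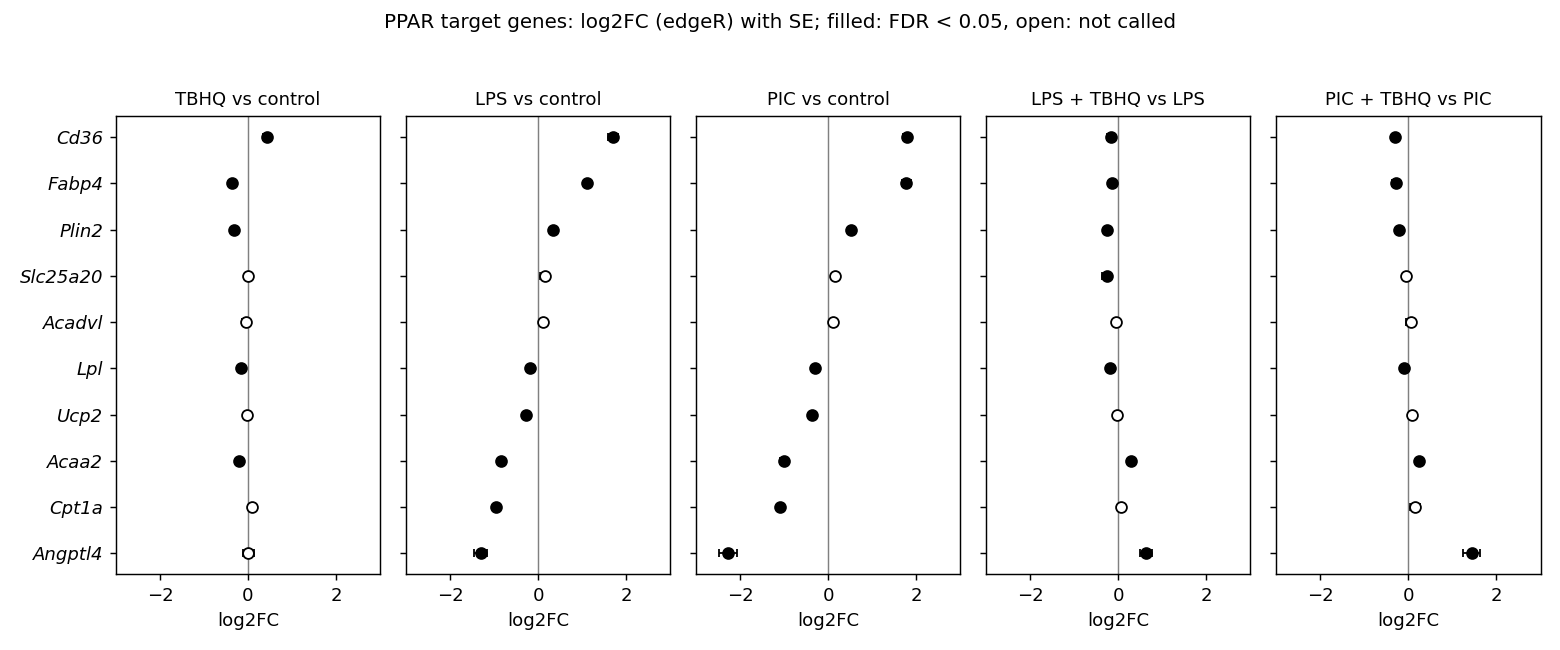
log2FC (linear axis) of the 10 PPAR target genes tested, in 5 comparisons; points are edgeR estimates, bars are SEs from the spread of 3 libraries per condition, and filled points passed an FDR below 0.05. *Cd36* and *Fabp4* rose and *Angptl4*, *Cpt1a* and *Acaa2* fell with both stimuli, and *Angptl4* was higher when TBHQ preceded either stimulus.

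*Rxra* encodes RXRα, the shared dimer partner. Its FPKM was 4.19, 4.099 and 4.403 in the control and 4.63, 4.92 and 4.93 with TBHQ. LPS cells had 4.05, 3.93 and 4.75, and LPS + TBHQ cells 5.74, 6.01 and 5.61. PIC cells had 3.85, 3.93 and 4.01, and PIC + TBHQ cells 5.32, 6.26 and 5.67. All 6 libraries of stimulated cells that had received TBHQ stood above every library of the 4 other conditions. TBHQ raised *Rxra* 1.36 times in LPS-stimulated cells (log2FC 0.44, SE 0.088, edgeR FDR = 1.1e-05) and 1.47 times in PIC-stimulated cells (log2FC 0.56, SE 0.069, edgeR FDR = 1.9e-07). The stimuli alone were not called (LPS -0.0028, SE 0.089, PIC -0.12, SE 0.034), although the PIC libraries lay below the control libraries and were called lower with scaling by library totals (-0.34). TBHQ alone gave 0.19 (SE 0.042) with all 3 libraries above the control at an edgeR FDR of 0.051, just outside the threshold, and was called with RLE size factors, in a fit of these 2 conditions only and when any of 7 libraries was left out. *Rxrb*, which encodes a second partner, had more transcripts per length than *Rxra*, with 19.3 ± 0.486 FPKM in the control. It was lower with LPS (-0.17, SE 0.021) and PIC (-0.32, SE 0.027) and higher with PIC + TBHQ than with PIC (0.16, SE 0.023). *Rxrg* had 0 counts in every library.

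*Rara* encodes RARα, a receptor of retinoic acid. Its FPKM was 2.81, 2.601 and 2.64 in the control and 3.41, 3.405 and 3.804 with TBHQ. LPS cells had 3.18, 2.79 and 3.11, and LPS + TBHQ cells 2.41, 3.01 and 2.95. In PIC cells it stood at 2.89, 2.54 and 3.07, and in PIC + TBHQ cells at 3.45, 3.596 and 3.28. The TBHQ and PIC + TBHQ libraries were all above the control libraries, while the other conditions overlapped the control. *Rara* was raised by TBHQ alone (log2FC 0.40, SE 0.061, edgeR FDR = 0.0025) and was higher with PIC + TBHQ than with PIC (log2FC 0.29, SE 0.087, edgeR FDR = 0.031), a call that was lost with DESeq2, without the low-count filter and without either of 2 PIC or 2 PIC + TBHQ libraries. In LPS-stimulated cells the value was -0.12 (SE 0.12), with no call, and the difference between the stimuli, 0.40 with an unadjusted p of 0.0090, was not called either (edgeR FDR = 0.16). *Rarg*, the γ form, rose with LPS (0.50, SE 0.099) and PIC (0.69, SE 0.073). *Rarb*, the β form and itself a retinoic acid target, was named after its values were seen: it had 7 to 39 counts, with 25, 39 and 33 in the control, 8, 9 and 8 with LPS and 7, 7 and 11 with PIC, and fell with both stimuli (-1.77 and -1.83).

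Genes that make, carry or clear receptor ligands were mostly too scarce to test. Of 19 such genes 6 were tested, and the untested 13 included the retinaldehyde dehydrogenases *Aldh1a1*, *Aldh1a2* and *Aldh1a3*, the retinoic acid hydroxylases *Cyp26a1* and *Cyp26b1*, and the 11β-hydroxysteroid dehydrogenases *Hsd11b1* and *Hsd11b2*. Among the tested genes *Dhrs3*, which reduces retinaldehyde to retinol, rose with LPS (0.69, SE 0.022) and PIC (0.30, SE 0.024), and scaling by library totals ended the PIC call. *Rdh10*, which acts in the other direction, fell with LPS (-0.37, SE 0.041) and PIC (-0.73, SE 0.085), a call lost with DESeq2 for LPS, and *Rdh11* rose (0.26, SE 0.057 and 0.45, SE 0.051). *Fabp5*, which carries fatty acids to PPARδ, was lower with TBHQ in LPS-stimulated (-0.25, SE 0.018) and PIC-stimulated cells (-0.27, SE 0.10). It was also lower than control with TBHQ alone (-0.41, SE 0.033), LPS (-0.21, SE 0.015) and PIC (-0.20, SE 0.098). Of 8 retinoic acid receptor target genes 3 were tested, *Dhrs3*, *Rarb* and *Tgm2*, and *Tgm2*, a transglutaminase, rose with PIC (1.06, SE 0.10) and was higher with TBHQ before LPS (0.39, SE 0.11).

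*Vdr*, the vitamin D receptor gene, was not detected above the floor. Its counts were 1, 0 and 0 in the control, 3, 1 and 1 with TBHQ, 1, 2 and 0 with LPS and 2, 0 and 0 with PIC. They were 1, 0 and 0 in LPS + TBHQ cells and 2, 0 and 0 in PIC + TBHQ cells. No library exceeded 3 counts, so the gene did not pass the low-count filter, no fold is given, and a change was not detectable at this depth. Of 6 known target genes, 2 were tested. *Spp1*, which encodes osteopontin, rose with LPS (0.67, SE 0.061) and PIC (0.89, SE 0.047), and was lower with TBHQ alone (-0.59, SE 0.039), before LPS (-0.14, SE 0.051) and before PIC (-0.16, SE 0.036). *Slc37a2*, a sugar phosphate transporter, was lower with PIC (-0.17, SE 0.041) and with TBHQ alone (-0.16, SE 0.039), before LPS (-0.41, SE 0.014) and before PIC (-0.26, SE 0.041).

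*Nr3c1* encodes the glucocorticoid receptor. Its FPKM was 7.27, 8.25 and 7.36 in the control and 9.63, 9.598 and 9.68 with TBHQ. LPS cells had 9.44, 9.25 and 9.39, and LPS + TBHQ cells 7.45, 8.39 and 7.61. PIC cells had 10.5, 9.702 and 10.98, and PIC + TBHQ cells 7.89, 8.96 and 8.62. The libraries of TBHQ, LPS and PIC alone all stood above the control libraries, and those that had received TBHQ before a stimulus stood below the same stimulus alone and overlapped the control. *Nr3c1* rose with TBHQ alone (log2FC 0.33, SE 0.058, edgeR FDR = 1.5e-05), with LPS (log2FC 0.29, SE 0.059, edgeR FDR = 6.4e-05) and with PIC (log2FC 0.43, SE 0.078, edgeR FDR = 3.1e-08). TBHQ before a stimulus lowered it in LPS-stimulated (log2FC -0.26, SE 0.053, edgeR FDR = 0.00055) and PIC-stimulated cells (log2FC -0.28, SE 0.074, edgeR FDR = 0.00013), by 1.199 and 1.22 times. PIC + TBHQ was called above control (0.15, SE 0.079, edgeR FDR = 0.030), but its libraries overlapped the control. The value was -0.0014 when libraries were scaled by their totals, and the call was lost with DESeq2, with limma on the logarithm of FPKM and without any of 4 of the libraries.

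The glucocorticoid receptor waits for its ligand in a complex with heat shock proteins, and 8 genes of this chaperone system were tested. With PIC 4 rose and 3 fell, and with LPS 3 rose and 4 fell (medians 0.21 and -0.072), against 58.7% and 48.1% of all genes called. *Hsp90aa1* and *Hsp90ab1*, the HSP90 genes, rose with LPS (0.53, SE 0.021 and 0.38, SE 0.027) and with PIC (0.75, SE 0.018 and 0.56, SE 0.035). After TBHQ 1 chaperone gene was higher and 2 lower in LPS-stimulated cells, and 2 higher and 5 lower in PIC-stimulated cells (medians -0.013 and -0.18), against 23.9% and 31.3% of all genes called. *Hsp90ab1* was lower in both (-0.23, SE 0.0060 and -0.21, SE 0.025). *Dnajb1*, an HSP40 cochaperone, rose with LPS (0.26, SE 0.055) and PIC (0.79, SE 0.045) and was lower with TBHQ before PIC (-0.52, SE 0.048). *Fkbp5*, which lowers the receptor's affinity for hormone and is itself a receptor target, was 4.995, 4.596 and 4.84 FPKM in the control. It was 3.500, 3.39 and 3.48 with LPS and 4.76, 4.92 and 4.57 with LPS + TBHQ. With PIC it was 2.95, 2.83 and 3.09, and with PIC + TBHQ 3.77, 3.77 and 3.62. The libraries of LPS alone and PIC alone were the lowest, and TBHQ before the stimulus placed every library above those of the stimulus alone. *Fkbp5* fell with LPS (log2FC -0.48, SE 0.037, edgeR FDR = 2e-08) and PIC (log2FC -0.72, SE 0.050, edgeR FDR = 1.6e-12) and was higher with TBHQ in both (0.46, SE 0.032 and 0.34, SE 0.040).

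Of 10 known glucocorticoid receptor targets 9 were tested, and the inflammatory stimuli are known to induce several of them without the receptor. With LPS 5 rose and 1 fell, and with PIC 6 rose and 1 fell, with medians of 0.59 and 0.60, against 48.1% and 58.7% of all genes called. *Dusp1*, a phosphatase that switches off MAP kinases, rose with LPS (2.05, SE 0.063) and PIC (2.90, SE 0.069) and was lower when TBHQ came first (-0.65, SE 0.054 and -0.83, SE 0.058). *Errfi1*, a brake on epidermal growth factor receptor signalling, followed the same order (1.04, SE 0.057, 1.53, SE 0.048, -0.41, SE 0.082 and -0.68, SE 0.022). *Mt2*, a metallothionein, rose with LPS (0.64, SE 0.23) and PIC (1.10, SE 0.29) and was higher still with TBHQ before LPS (0.78, SE 0.20) and PIC (0.53, SE 0.27). For the last, the libraries overlapped and the call was lost with DESeq2. *Cebpd* rose with LPS (0.99, SE 0.11) and PIC (0.60, SE 0.013) and was higher with TBHQ before PIC (0.36, SE 0.094). *Per1*, a clock gene, rose with LPS (0.59, SE 0.061) and PIC (0.75, SE 0.045) and was lower with TBHQ alone (-0.29, SE 0.066) and before PIC (-0.14, SE 0.035). The other tested targets were also called with TBHQ alone, against 29% of all genes. *Mt2* (0.89, SE 0.17), *Cebpd* (0.87, SE 0.033), *Sgk1* (0.65, SE 0.14), *Errfi1* (0.26, SE 0.10), *Dusp1* (0.22, SE 0.10) and *Fkbp5* (0.17, SE 0.056) were higher. *Klf9* (-0.50, SE 0.061) and *Tsc22d3* (-0.37, SE 0.15) were lower. The *Dusp1* and *Tsc22d3* libraries overlapped those of the control. After TBHQ 2 of the 9 were higher and 2 lower in LPS-stimulated cells, and 3 higher and 3 lower in PIC-stimulated cells (medians -0.091 and -0.093), against 23.9% and 31.3% of all genes called.

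*Esrra* encodes ERRα, an orphan receptor that drives genes of mitochondrial respiration. Its FPKM was 14.5, 13.5 and 13.7 in the control and 13.5, 13.7 and 14.01 with TBHQ. LPS cells had 13.9, 13.6 and 15.5, and LPS + TBHQ cells 15.98, 15.3 and 15.1. In PIC cells it stood at 13.3, 13.5 and 13.5, and in PIC + TBHQ cells at 17.2, 16.2 and 17.4. The PIC + TBHQ libraries were the highest of all 18 and did not overlap those of any other condition. *Esrra* was 1.27 times as abundant with PIC + TBHQ as with PIC (log2FC 0.35, SE 0.032, edgeR FDR = 1.5e-06). Neither stimulus alone was called (LPS 0.038, SE 0.067, PIC -0.069, SE 0.033), although PIC was called lower with scaling by library totals (-0.29). TBHQ was not called in LPS-stimulated cells (0.10, SE 0.063), and the difference of the TBHQ effect between the stimuli was 0.24 (SE 0.071), with an unadjusted p of 0.0019 and an edgeR FDR of 0.076. This difference was called with scaling by library totals and without LPS replicate 2. LPS + TBHQ was called above control (0.14, SE 0.041, edgeR FDR = 0.021), a call lost without control replicate 2 or 3 or LPS + TBHQ replicate 1 and with scaling by library totals. In the authors' positions *Esrra* (chromosome 19, 6888345 to 6899208, minus strand) shares 73 bases at its end with *Trmt112* on the opposite strand, which had 678 to 981 counts per library, and whether the counting used strand was not given in the sources used here.

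*Ppargc1b*, which encodes PGC-1β, a coactivator of ERRα and the PPARs, had 4.996, 4.599 and 4.45 FPKM in the control. It had 4.06, 4.68 and 4.45 with LPS and 6.26, 5.45 and 5.76 with LPS + TBHQ. With PIC it had 3.84, 4.09 and 4.01, and with PIC + TBHQ 5.68, 6.05 and 6.76. Its 6 libraries with TBHQ before a stimulus were the highest. *Ppargc1b* fell with PIC (-0.25, SE 0.057), a call lost with DESeq2, and was higher with TBHQ in LPS-stimulated (log2FC 0.40, SE 0.085, edgeR FDR = 0.00065) and PIC-stimulated cells (log2FC 0.64, SE 0.079, edgeR FDR = 5.1e-07). *Ppargc1a*, its better known relative, did not pass the low-count filter. Of 12 known ERRα target genes 11 were tested. With LPS 7 fell and 1 rose, with PIC 7 fell and 1 rose, and the medians were -0.22 and -0.15, against 48.1% and 58.7% of all genes called. *Idh3a* of the citric acid cycle fell with both (-0.40, SE 0.030 and -0.48, SE 0.029), as did *Ndufb5* of respiratory complex I (-0.31, SE 0.027 and -0.29, SE 0.042) and *Acadm* of fatty acid oxidation (-0.27, SE 0.056 and -0.49, SE 0.075). After TBHQ 4 were higher and 1 lower in LPS-stimulated cells, and 6 higher and 1 lower in PIC-stimulated cells. The medians were 0.060 and 0.11, against 23.9% and 31.3% of all genes called. *Idh3a* was higher in both (0.16, SE 0.048 and 0.16, SE 0.036), as was *Cs*, citrate synthase (0.22, SE 0.017 and 0.11, SE 0.054). The *Cs* libraries of PIC + TBHQ overlapped those of PIC. *Acadm* was higher in PIC-stimulated cells (0.25, SE 0.067), and *Cycs*, cytochrome c, was the lower gene in both (-0.30, SE 0.031 and -0.25, SE 0.028).

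*Nr4a1* and *Nr4a2* encode NUR77 and NURR1, receptors with no known need of a ligand, whose genes are switched on within an hour of many stimuli and fall again soon after. The FPKM of *Nr4a1* was 1.73, 1.57 and 1.400 in the control and 1.82, 2.06 and 1.67 with TBHQ. With LPS it was 1.36, 1.45 and 2.01, and with LPS + TBHQ 1.72, 1.82 and 1.46. With PIC it was 1.86, 2.19 and 2.205, and with PIC + TBHQ 1.43, 1.504 and 1.76. The PIC libraries lay above those of the control and of PIC + TBHQ, and the LPS libraries overlapped the control. *Nr4a1* rose with PIC (log2FC 0.40, SE 0.12, edgeR FDR = 0.026) and was lower with PIC + TBHQ than with PIC (log2FC -0.40, SE 0.12, edgeR FDR = 0.046), but both calls were lost with DESeq2 and with scaling by library totals. They were also lost without PIC replicate 2 or 3, the first without control replicate 2 or 3, and the second without LPS + TBHQ replicate 1 or PIC + TBHQ replicate 1 or 2 and with no low-count filter. With LPS the value was 0.033 (SE 0.19), and the difference of the TBHQ effect between the stimuli was -0.45 (SE 0.23), which was not called. A long non-coding RNA gene on the same strand lies within *Nr4a1* and had 7 to 17 counts per library.

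*Nr4a2* was scarcer, with 31 to 69 counts per library. The counts were 61, 67 and 58 in the control, 41, 51 and 69 with LPS and 44, 31 and 60 with PIC. They were 53, 59 and 55 with TBHQ, 45, 44 and 54 in LPS + TBHQ cells and 35, 47 and 34 in PIC + TBHQ cells. After scaling, the PIC + TBHQ libraries lay below the control libraries, and so did those of LPS + TBHQ. *Nr4a2* was called lower with PIC + TBHQ than in the control (log2FC -0.59, SE 0.20, edgeR FDR = 0.022), a call lost with DESeq2 and without control replicate 1 or 2 or PIC + TBHQ replicate 1 or 3. It was called in no other comparison, although scaling by library totals called it lower than control with PIC (-0.58) and LPS + TBHQ (-0.52) as well. *Nr4a3*, the third gene of this group, had 2, 0 and 2 counts in the control and 5, 6 and 10 with PIC, did not pass the filter and was not tested. Of 9 immediate early genes, *Nr4a3* among them, 8 were tested. With LPS 5 rose and 3 fell, and with PIC 5 rose and 2 fell, with medians of 0.60 and 1.01, against 48.1% and 58.7% of all genes called. TBHQ before LPS lowered 5 and TBHQ before PIC 6, with medians of -0.34 and -0.45, against 23.9% and 31.3% of all genes called. *Egr1*, chosen after its values were seen, rose with LPS (1.12, SE 0.082) and PIC (1.63, SE 0.052) and was lower with TBHQ first (-1.26, SE 0.090 and -1.74, SE 0.089). It was also lower with TBHQ alone (-0.83, SE 0.036).

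**Figure D3:**
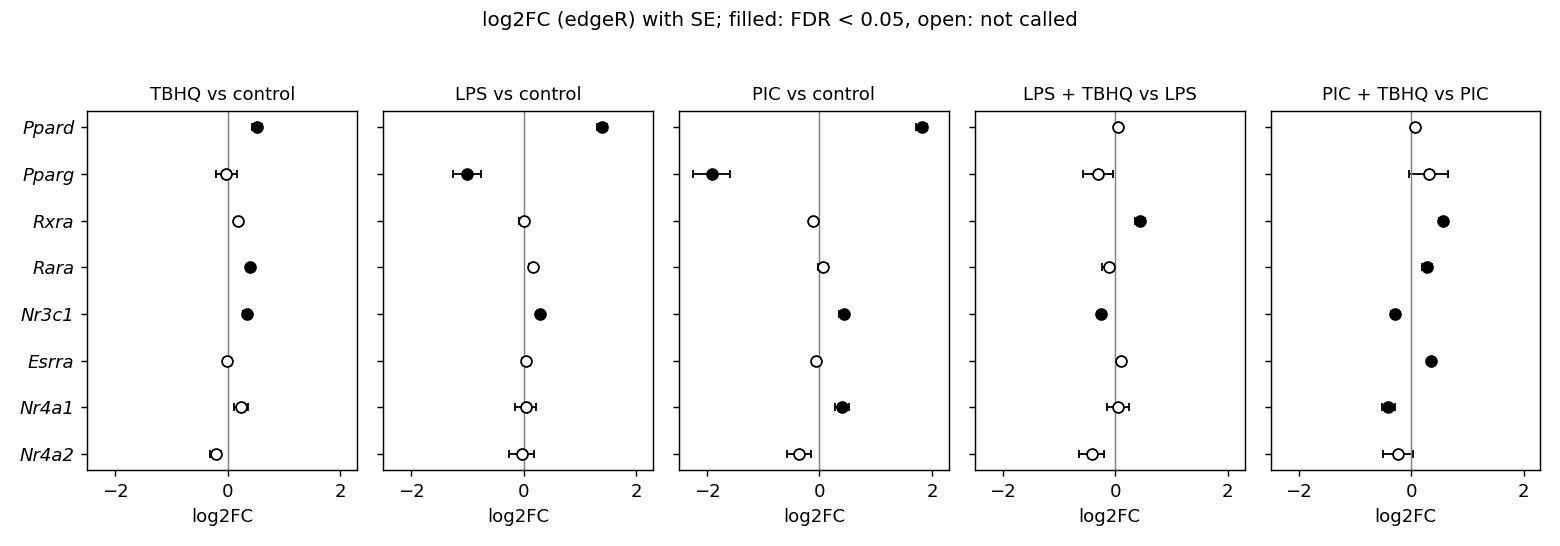
log2FC (linear axis) of the 8 receptor genes tested, in 5 comparisons; points are edgeR estimates, bars are SEs from the spread of 3 libraries per condition, and filled points passed an FDR below 0.05. *Ppard* was raised and *Pparg* lowered by both stimuli, while *Rxra* was higher and *Nr3c1* lower when TBHQ preceded either stimulus.

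Counted by comparison, 8 of the 9 genes passed the low-count filter and could be called, and the shares of all 13691 tested genes called in the same comparison are given beside each count. With TBHQ alone 3 of 8 were called, all higher (*Ppard*, *Rara* and *Nr3c1*), against 29% of all genes. With LPS 3 of 8 were called, *Ppard* and *Nr3c1* higher and *Pparg* lower, against 48.1%, and with PIC 4 of 8, these 3 and *Nr4a1*, against 58.7%. With scaling by library totals the PIC calls were 2 higher (*Ppard* and *Nr3c1*) and 4 lower (*Pparg*, *Rxra*, *Esrra* and *Nr4a2*). Over all 13691 genes this scaling called 2379 higher and 6635 lower with PIC. LPS + TBHQ differed from control for 4 of 8 (43.7% of all genes), and PIC + TBHQ for 7 of 8 (52.4%), all but *Nr4a1*. Under at least 1 alternative the *Esrra* call was lost in the former, and the *Rara*, *Nr3c1* and *Nr4a2* calls in the latter. TBHQ before LPS changed 2 of 8, *Rxra* and *Nr3c1* (23.9% of all genes), and TBHQ before PIC 5 of 8 (31.3%), *Rxra*, *Rara* and *Esrra* upward and *Nr3c1* and *Nr4a1* downward. PIC differed from LPS for 2 of 8, *Ppard* and *Pparg* (27.7% of all genes). The difference of the TBHQ effect between PIC and LPS was called for 0 of 8 in edgeR, DESeq2 and limma, against 1.83% of all genes in edgeR, and 2 of 8, *Esrra* and *Rara*, had an unadjusted p under 0.05. The *Esrra* difference was called with scaling by library totals and without LPS replicate 2. In the main fit, the calls in PIC-stimulated cells that were not made in LPS-stimulated cells are therefore not shown to differ between the stimuli. At the study's threshold, an FDR below 0.01 with |log2FC| above 2, edgeR called 0 of 8 in every comparison, since no log2FC of the 8 in the main fit exceeded 2 in size. For *Pparg* with PIC the log2FC reached -2.13 under another setting and -2.25 with a library left out. Against control, that threshold took 0.19% of all genes for TBHQ, 1.64% for LPS, 3.57% for PIC, 0.964% for LPS + TBHQ and 2.15% for PIC + TBHQ. It took 0.387% for TBHQ before LPS, 0.299% for TBHQ before PIC, 0.307% for PIC against LPS and 0% for the difference between the stimuli.

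The rest of the family was largely silent in these cells. Of 40 other mouse nuclear receptor genes 14 were tested and 26 were not, and over all 49 genes 11 had 0 counts in every library and another 11 had at most 3. With LPS 4 of the 14 rose and 3 fell, and with PIC 7 rose and 4 fell, with medians of 0.11 and 0.19. That is 7 and 11 of 14, against 48.1% and 58.7% of all genes called. *Thra*, the thyroid hormone receptor α gene, rose with LPS (0.76, SE 0.11) and PIC (0.50, SE 0.12). *Nr1d1* and *Nr1d2* encode the clock receptors REV-ERBα and REV-ERBβ. *Nr1d1* rose with LPS (0.51, SE 0.068) and PIC (0.31, SE 0.024) and was lower with TBHQ before LPS (-0.42, SE 0.070) and PIC (-0.35, SE 0.12), the last of which was lost with DESeq2, while *Nr1d2* fell with LPS (-0.56, SE 0.077), PIC (-0.59, SE 0.11) and TBHQ alone (-0.75, SE 0.055). Clock genes can also differ with the hour of harvest, whose part in these values was not tested. *Nr6a1* rose with PIC (0.42, SE 0.10), a call lost with scaling by library totals. *Nr2f6*, an orphan receptor, fell with PIC (-0.42, SE 0.16) and was higher with TBHQ before PIC (0.59, SE 0.19). *Nr1h3*, the liver X receptor α gene, was not called with LPS (0.12, SE 0.15) and rose with PIC (0.37, SE 0.062).

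All 7 genes of the corepressor list were tested. With LPS 3 rose and 1 fell, and with PIC 3 rose and 3 fell, with medians of 0.0022 and 0.029, against 48.1% and 58.7% of all genes called. *Lcor*, a ligand-dependent corepressor, rose with LPS (0.42, SE 0.083) and PIC (0.52, SE 0.067), and *Gps2*, a subunit of the NCoR complex, fell with PIC (-0.33, SE 0.041). After TBHQ 2 of the 7 were lower in LPS-stimulated and 4 in PIC-stimulated cells, with medians of -0.073 and -0.13, against 23.9% and 31.3% of all genes called. *Tbl1x*, another subunit, rose with LPS (0.18, SE 0.062) and PIC (0.27, SE 0.044) and was lower with TBHQ before LPS (-0.20, SE 0.050) and PIC (-0.31, SE 0.035). Both rises lost their call with scaling by library totals. Of 12 coactivator genes 11 were tested, with 3 higher and 4 lower with LPS, and 3 higher and 5 lower with PIC (medians -0.097 and -0.14), against 48.1% and 58.7% of all genes called. With TBHQ alone 8 were higher and 1 lower (median 0.15, beside -8.6e-05 over all genes), against 29% of all genes called. Of the 7 corepressor genes 3 were higher with TBHQ alone and 0 lower in edgeR, DESeq2 and limma (0 lower at unadjusted p < 0.05 as well). Among the 3 was *Lcor* (0.63, SE 0.067), and the median was 0.041. *Ncoa3* fell with both stimuli (-0.44, SE 0.053 and -0.44, SE 0.052), as did *Pprc1* (-0.25, SE 0.064 and -0.32, SE 0.032), which encodes a relative of PGC-1. TBHQ alone raised *Ncoa3* (0.11, SE 0.046) and *Pprc1* (0.22, SE 0.033). With TBHQ before LPS *Ppargc1b*, *Carm1* (0.16, SE 0.073) and *Ncoa3* (0.13, SE 0.042) were higher and *Ep300* was lower (-0.13, SE 0.034). Before PIC *Ppargc1b* was higher, and *Ep300* (-0.19, SE 0.045) and *Med1* (-0.15, SE 0.041) were lower. The other coactivators tested were not called in these comparisons, against 23.9% and 31.3% of all genes called.

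The genes whose pattern was most like that of *Ppard* and *Pparg*, the 2 members whose condition means spanned at least 1 on the log2 scale, were taken by the root mean square difference of log2 CPM, centred per gene, over 18 libraries and 10444 genes with a mean of at least 50 counts. For *Ppard* these were *Micall2* (0.130), *Ehd1* (0.134) and *Plxna1* (0.159), against a median of 0.716 over all genes compared. *Micall2* stood 1.54 above control with LPS and 2.00 above it with PIC. For *Pparg* the nearest were *Mnd1* (0.280), *Nmral1* (0.303) and *Cdk1* (0.305), against a median of 0.751, and *Cdk1*, the kinase that drives mitosis, stood at -1.21 with LPS and -1.72 with PIC relative to control.

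Promoter windows are shown for *Ppard*, which both stimuli and TBHQ alone raised, and for *Rxra*, which TBHQ raised in stimulated cells. RefSeq windows of 300 bases, 250 before and 50 after a start site on GRCm38.p6, matched 8 of the 9 symbols with 14 windows when *Nr3c1* was left out. They were searched on both strands for the antioxidant response element core TGACNNNGC, the receptor hexamer AGGTCA, the NGFI-B element AAAGGTCA that NUR77 binds and that contains the hexamer, the cyclic AMP element TGACGTCA and the AP-1 site TGANTCA. Of 32851 promoter windows 12.4% held the first, 16.3% the hexamer, 1.51% the NGFI-B element, 1.79% the cyclic AMP element and 7.81% the AP-1 site. The *Ppard* window held the antioxidant core once, at 4 bases before the start site, and the window of the downstream *Rxra* start held the hexamer on each strand, 1 copy of it within an NGFI-B element. The other *Rxra* window held none of the 5. The antioxidant core was also found in windows of *Nr4a2*, *Pparg* and *Rara*, of which TBHQ alone raised only *Rara*, and the hexamer in windows of *Pparg* and *Rara*. A match of letters is a description and not evidence of binding. Capitals mark these motifs.
Ppard, chr17:28232504-28232803, plus strand: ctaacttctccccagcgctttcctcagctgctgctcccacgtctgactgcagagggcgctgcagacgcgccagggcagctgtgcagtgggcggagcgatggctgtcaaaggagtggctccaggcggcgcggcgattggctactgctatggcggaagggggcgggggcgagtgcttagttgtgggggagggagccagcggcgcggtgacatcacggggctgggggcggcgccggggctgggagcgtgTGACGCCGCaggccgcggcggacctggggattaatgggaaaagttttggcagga
Rxra, chr2:27709042-27709341, plus strand: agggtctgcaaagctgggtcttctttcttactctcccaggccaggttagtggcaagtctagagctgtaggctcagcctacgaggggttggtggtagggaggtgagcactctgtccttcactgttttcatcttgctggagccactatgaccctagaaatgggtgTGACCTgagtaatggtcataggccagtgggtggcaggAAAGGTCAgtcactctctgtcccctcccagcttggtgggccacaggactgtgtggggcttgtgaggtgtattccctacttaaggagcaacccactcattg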

How the data were processed

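RNA of 18 libraries of RAW264.7 cells, 3 in each of 6 conditions, was analysed from the deposited gene tables. The counts are fragments per gene that the authors counted with featureCounts 1.5.0-p3 after alignment with HISAT2 2.0.5, and are not normalized. The FPKM values are those the authors deposited. They equalled FPKM recomputed from the counts and gene lengths times a constant per library (0.943 to 1.12) within 0.1%. Gene length is in bases, as deposited. The genome build was written as a mixture of GRCm38 and mm39, so the authors' positions are kept apart from the GRCm38.p6 promoter windows. The sources call the libraries strand-specific in one place and name directional and non-directional kits in another. Counts per library had a median of 15742300.

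Counts were tested with edgeR 4.0.16 (R 4.3.3) by quasi-likelihood F tests, with filterByExpr, TMM scaling and 1 coefficient per condition. Benjamini-Hochberg FDR was taken over 13691 genes, and a call was an FDR below 0.05. The 9 comparisons were each of TBHQ, LPS, PIC, LPS + TBHQ and PIC + TBHQ with control, each stimulus with TBHQ before it against the stimulus alone, PIC with LPS, and the difference of the TBHQ effect between PIC and LPS. SEs come from the spread of log2 CPM between replicates. The methods name 3 biological replicates from wells of 6-well plates, so p-values measure the spread between these libraries. Tests were checked on simulated counts with planted changes. The spread set in the simulation was not that of these libraries, so the check gives no error rate for the calls made here. Alternatives were DESeq2 1.42.0, RLE size factors, total library size, no low-count filter, the replicate number as a block, only the conditions compared, each library left out, limma 3.58.1 on log2(FPKM + 1) and log2(FPKM + 0.1), and the study's threshold. Levels between genes used FPKM. Summaries and plots used matplotlib 3.10.9, scipy 1.17.1, numpy 2.4.6 and pandas 2.3.3 under Python 3.11.15.

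The members and lists were chosen with earlier results of these data known. The lists were other nuclear receptors, corepressor complex, coactivators, ligand metabolism and carriers, glucocorticoid receptor chaperones, targets of the glucocorticoid, PPAR, retinoic acid and vitamin D receptors and of *Esrra*, immediate early genes, and markers of macrophages, osteoclasts, T cells, B cells, dendritic cells, and fibroblasts and epithelium. Named from the lists of receptors, cofactors, ligand genes, chaperones and targets were up to 4 genes per list and comparison with the largest |log2FC| among genes called with a mean of at least 50 counts. *Nr4a3*, *Rxrb* and *Nr1h3* were always named. Genes most like a member were the 3 nearest per member.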

Additional observations from a re-analysis of the deposited data

Results flagged for a closer look

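For 4 of 71 genes looked at the effect of TBHQ differed between PIC- and LPS-stimulated cells in edgeR, against 1.83% of all genes tested. The lists were written with earlier results of these data known, and *Egr1*, picked from its values, is among the 4. The shares are therefore no test of these genes as a set. For *Hsp90aa1* the log2FC of TBHQ before PIC minus that before LPS was -0.174 (SE 0.025, edgeR FDR = 0.012), with 0.022 in LPS- and -0.15 in PIC-stimulated cells. For *Hspa8* it was -0.251 (SE 0.043, edgeR FDR = 0.00031), with -0.043 and -0.29. For *Dnajb1* it was -0.380 (SE 0.072, edgeR FDR = 0.0028), with -0.14 and -0.52. For *Egr1*, named after its values were seen, it was -0.472 (SE 0.13, edgeR FDR = 0.0029), with -1.26 and -1.74. With TBHQ alone *Egr1* (-0.83) and *Hspa8* (-0.18) were lower, and *Hsp90aa1* and *Dnajb1* were not called. PIC alone also raised these 4 more than LPS alone, and the PIC libraries enter both values. What underlies the difference was not tested.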

How the results depend on the processing

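Of 30 called member values 22 kept their call and direction under every alternative but the study's threshold, and 8 lost it somewhere. Of 42 uncalled values 31 stayed uncalled. At the study's threshold 0 members were called in each comparison of the main fit. For PIC + TBHQ vs PIC the 5 calls became 3 with DESeq2, 3 with no low-count filter, and 3 to 5 with a library left out. For PIC vs LPS the 2 calls became 1 with DESeq2, 1 with no low-count filter, 1 with limma on log2(FPKM + 1), 4 with total library size, and 1 to 3 with a library left out. The difference of the TBHQ effect between PIC and LPS went from 0 calls to 1 with total library size, and 0 to 1 with a library left out (*Esrra* in both cases). The *Nr3c1* log2FC of PIC + TBHQ vs control was 0.15 and became -0.0014 with total library size. In checks of 122 other named values under the alternatives, 3052 left the call as it was, 120 ended it and 0 reversed it, and 31 of the 122 lost their call at least once. Total library size ended 15 of these calls, among them *Dhrs3* and *Nr6a1* for PIC and *Tbl1x* for LPS and PIC. Over all genes tested, this scaling moved the median log2FC by -0.088 for LPS and -0.22 for PIC against control. Why the 2 scalings differ was not tested.

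With the replicate number as a block (replicate block), PIC + TBHQ vs PIC had 4 calls against 5, TBHQ vs control 4 against 3 and PIC vs LPS 3 against 2. *Nr4a1* left PIC + TBHQ vs PIC, *Rxra* joined TBHQ vs control and *Nr3c1* PIC vs LPS. Deviations of libraries with the same number correlated at -0.044 to 0.065, with 0 of 45 pairs above 0.1, so the numbers did not pair the libraries.

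Total library size in place of TMM changed the share of calls that were higher from 49.8% to 35.0% for LPS, 48.7% to 26.4% for PIC, 48.4% to 36.1% for LPS + TBHQ and 50.4% to 30.0% for PIC + TBHQ against control. It changed from 48.9% to 59.5% for TBHQ before LPS, 50.6% to 70.3% for TBHQ before PIC, 53.7% to 18.4% for PIC vs LPS and 45.0% to 76.1% for the difference. Depth limits what can be called for *Vdr*, *Pparg* and *Nr4a2*, which had at most 69 counts in any library.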
